A study of Mus musculus with 6 samples.

Results

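The acute phase protein genes described here are *Saa1*, *Saa2*, *Saa4*, *Orm1*, *Orm2*, *Lcn2*, *Apcs*, *Crp*, *Itih4* and *Steap4*. They were chosen by name as genes of the hepatic acute phase response, with earlier results of these data known. Counts of members set beside shares of all genes therefore describe the set and do not test it. The transcripts of each gene symbol in the liver RNA sequencing were summed. The 10 genes are members of a table of 35540 gene symbols, and all 10 were among the 14189 genes that averaged 0.1 TPM or more over the mice and were tested. TPM, the unit of the table, is transcript abundance corrected for transcript length, so levels of different genes can be set side by side.

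The acute phase response is the change in plasma proteins that follows infection, tissue injury or other inflammation. Interleukin-1, tumour necrosis factor and above all interleukin-6 reach the hepatocyte, where STAT3, NF-kB and C/EBP factors raise transcription of positive acute phase genes while transcripts of negative ones, such as albumin and transthyretin, decline. In the mouse, serum amyloid A and the pentraxin Apcs are the classic major acute phase proteins, whereas Crp, the major one in humans, responds little. The products are secreted through the endoplasmic reticulum and Golgi, with the exception of Steap4, which is a membrane protein.

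Livers of 6 mice were compared. The 3 *Surf4* fl/fl Alb-Cre+ mice carry Cre under the albumin promoter, which is active in hepatocytes, so that exon 2 of *Surf4*, a cargo receptor of the endoplasmic reticulum, is excised there while other liver cells keep it. The 3 *Surf4* fl/fl Alb-Cre- littermates share the loxP-flanked alleles and lack Cre. Replicate 2 of each genotype was a female and the other replicates were males, the strain background is C57BL/6 J, no treatment is named, and the labels give no age. The methods give an overnight fast ahead of tissue collection.

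Summed *Surf4* transcripts were 92.48, 94.51 and 92.5 TPM in Alb-Cre- replicates 1, 2 and 3, and 59.01, 71.84 and 54.32 TPM in Alb-Cre+ replicates 1, 2 and 3. The Alb-Cre+ values were all below the controls (log2 difference -0.60, SE 0.134, limma unadjusted p = 0.00269, Benjamini-Hochberg adjusted p = 0.9999). The sum includes transcripts that lack exon 2. At an adjusted p of 0.01, limma called 0 of 14189 genes, or 0.0%, and 250 genes, or 1.76%, had an unadjusted p under 0.05. With a different test, the paper reported limited changes in liver transcripts, among them raised *Derl3*. The 0 calls here therefore do not show that no transcript changed. The 8 hepatocyte markers summed to between 45100 and 63570 TPM. Alb-Cre+ replicate 2 stands apart, since 45.8% of all genes tested had their highest value in it, a share that became 22.7% after the mice were scaled to each other by median-of-ratios factors. The number of reads per mouse is unknown.

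Single mice of both genotypes stood out in these genes, and no member separated the genotypes. In TPM as deposited, the highest value of all 10 members was in Alb-Cre+ replicate 2, against 45.8% of all genes tested. After median-of-ratios scaling 8 members remained highest there, against 22.7% of all genes, and *Saa1* and *Saa2* were then highest in Alb-Cre- replicate 3. As deposited, the lowest value was in Alb-Cre+ replicate 1 for 5 members and in Alb-Cre+ replicate 3 for the other 5, beside 8.87% and 42.4% of all genes, and after scaling *Itih4* was lowest in Alb-Cre- replicate 1. The genotypes overlapped for all 10 members, so that 0 members had separated values, where 4.9% of all genes did. For 5 members (*Saa1*, *Saa2*, *Orm2*, *Lcn2* and *Steap4*) the highest mouse was at least 10 times the lowest, a range seen in 2.15% of the 10635 genes that averaged 1 TPM or more.

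Together, transcripts of the 10 members made up 0.217%, 1.0% and 1.51% of all TPM in Alb-Cre- replicates 1, 2 and 3. They made up 0.191%, 2.6% and 0.183% in Alb-Cre+ replicates 1, 2 and 3. Each genotype thus held both low and high mice, and the highest sum was 14.2 times the lowest. In bulk liver, fewer cells of a type and less RNA per cell cannot be told apart.

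**Figure D1:**
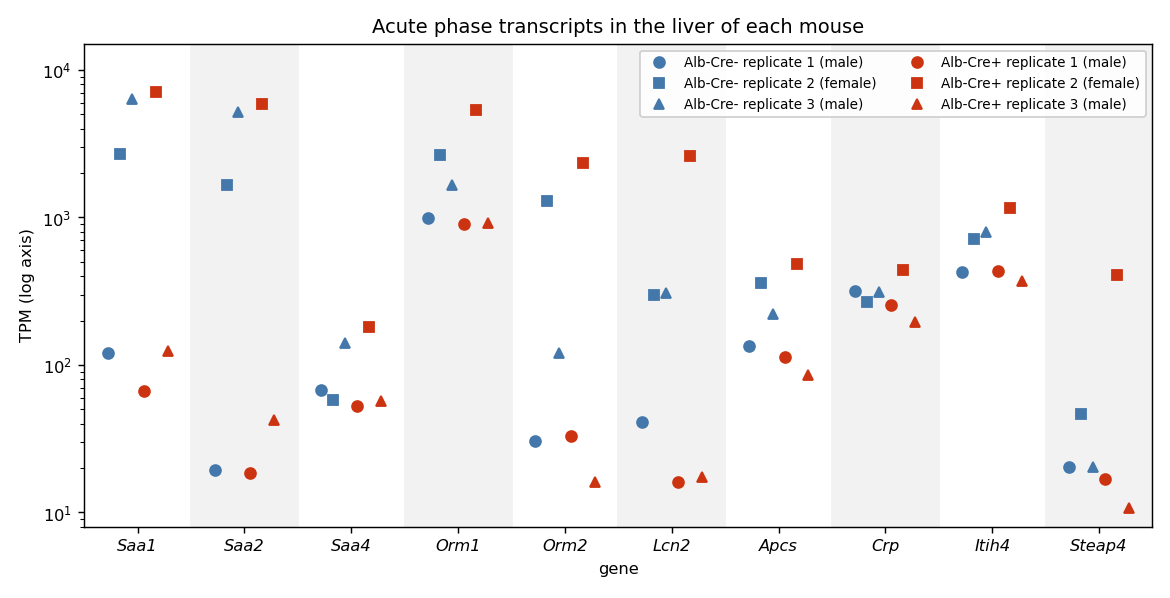
TPM of each acute phase gene on a log axis, 1 point per mouse, with Alb-Cre- mice in blue and Alb-Cre+ mice in red and the replicate number shown by the symbol. The red square, Alb-Cre+ replicate 2, is the highest point of all 10 genes as deposited (after median-of-ratios scaling *Saa1* and *Saa2* are highest in Alb-Cre- replicate 3), and as deposited red circles and triangles share the lowest place with 5 genes each (after scaling *Itih4* is lowest in Alb-Cre- replicate 1).

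Serum amyloid A proteins are small apolipoproteins that displace apolipoprotein A-I from high density lipoprotein during inflammation. *Saa1* and *Saa2*, the inducible forms, lie close together on chromosome 7 of GRCm38 in opposite orientation, *Saa1* at chr7:46740497-46742980 on the minus strand and *Saa2* at chr7:46751790-46754313 on the plus strand. *Saa4*, the form made constitutively, lies at chr7:46727998-46732603 on the minus strand. Of the 31-base words of *Saa1* transcripts in GENCODE M21, 46.8% also occur in another gene, 46.0% in *Saa2*, and for *Saa2* the share is 44.5%, so reads can be divided wrongly between these genes. Their coding sequences have the same length of 366 bases and differ at 18 of them (95.1% identical). The stretch with most differences, coding bases 60 to 149 counted from the A of the start codon, is shown because reads from it can separate the paralogs. Capitals mark the 11 bases that differ, both stretches are written 5′ to 3′ on the coding strand and join 2 exons, and an intron lies within their coordinates (chr7:46741337-46742463 for *Saa1* and chr7:46752350-46753475 for *Saa2*).
Saa1 coding bases 60 to 149: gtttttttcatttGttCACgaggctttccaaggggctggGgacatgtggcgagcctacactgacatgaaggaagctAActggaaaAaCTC
Saa2 coding bases 60 to 149: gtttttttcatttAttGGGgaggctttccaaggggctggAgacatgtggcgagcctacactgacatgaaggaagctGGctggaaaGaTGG

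*Saa1* was at 120.2, 2697 and 6359 TPM in Alb-Cre- replicates 1, 2 and 3, and at 66.28, 7139 and 125.3 TPM in Alb-Cre+ replicates 1, 2 and 3. A low and a high class of mice cut across the genotypes, with 1 control and 2 Alb-Cre+ mice at or below 125.3 TPM and the other 3 mice at or above 2697 TPM. The log2 difference, Alb-Cre+ minus Alb-Cre-, was -1.71 (SE 2.06, 95% confidence interval -6.57 to 3.15, limma adjusted p = 0.9999, two-sided exact permutation p = 0.8). With 3 mice against 3, the smallest p that the 20 splits of the exact test allow is 0.1.

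*Saa2* was at 19.42, 1664 and 5172 TPM in the Alb-Cre- replicates and at 18.43, 5886 and 42.16 TPM in the Alb-Cre+ replicates, again in the order of replicate number. The same 3 mice were high, and the highest was 319 times the lowest, the widest range among the 10 members. The log2 difference was -1.73 (SE 2.69, limma adjusted p = 0.9999, exact permutation p = 0.9). A pair of coding transcripts divided the gene's TPM nearly evenly, the shorter with 39.5% to 51.8% and the longer with 46.3% to 60.4% of it in each mouse.

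When *Saa1* and *Saa2* were added, so that reads divided between them do not matter, the sum was 139.6, 4361 and 11530 TPM in the controls and 84.71, 13020 and 167.4 TPM in the Alb-Cre+ mice. The sum made up 1.3% of all TPM in Alb-Cre+ replicate 2 and 1.15% in Alb-Cre- replicate 3. Its log2 difference was -1.75 (SE 2.24, limma adjusted p = 1.0).

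*Saa4* was at 67.94, 58.24 and 141.6 TPM in the controls and at 52.99, 182 and 56.66 TPM in the Alb-Cre+ mice. Alb-Cre+ replicate 2 and Alb-Cre- replicate 3 were high here too, but Alb-Cre- replicate 2, high in *Saa1* and *Saa2*, was among the low mice. The highest mouse was 3.43 times the lowest, and the log2 difference was -0.01 (SE 0.535, limma adjusted p = 0.9999, exact permutation p = 1.0).

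Orosomucoids, also called alpha-1-acid glycoproteins, are lipocalins of plasma that bind drugs and other small molecules. *Orm1* (chr4:63344560-63348163) and *Orm2* (chr4:63362449-63365878) lie on the plus strand of chromosome 4 with *Orm3* between them. Their transcripts share 27.5% of the 31-base words of *Orm1*, and their coding sequences of 621 bases differ at 63 positions (89.9% identical). Coding bases 139 to 228 are shown because they hold the most differences, 20 in 90 bases, which the capitals mark. The stretches lie within 1 exon each, at chr4:63345090-63345179 for *Orm1* and chr4:63362965-63363054 for *Orm2*.
Orm1 coding bases 139 to 228: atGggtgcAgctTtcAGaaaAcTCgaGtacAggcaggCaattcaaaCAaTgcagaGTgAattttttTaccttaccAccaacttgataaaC
Orm2 coding bases 139 to 228: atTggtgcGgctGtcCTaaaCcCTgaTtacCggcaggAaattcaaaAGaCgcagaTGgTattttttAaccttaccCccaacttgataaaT

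*Orm1* was abundant in every mouse, with 987.6, 2650 and 1667 TPM in Alb-Cre- replicates 1, 2 and 3, and 902.8, 5381 and 912.1 TPM in the Alb-Cre+ replicates. The order of the high mice differed from that of *Saa1*, since Alb-Cre- replicate 2 was above Alb-Cre- replicate 3. The log2 difference was 0.01 (SE 0.726, 95% confidence interval -1.71 to 1.72, limma adjusted p = 0.9999, exact permutation p = 1.0).

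*Orm2* was at 30.35, 1288 and 119.8 TPM in the controls and at 32.9, 2329 and 15.99 TPM in the Alb-Cre+ mice. The females, replicate 2 of each genotype, were the highest mice, and Alb-Cre- replicate 3 reached 5.14% of the level of Alb-Cre+ replicate 2, against 89.1% for *Saa1*. The log2 difference was -0.64 (SE 2.06, limma adjusted p = 0.9999, exact permutation p = 0.8), and that of the *Orm1* and *Orm2* sum was -0.03 (SE 0.884, limma adjusted p = 1.0).

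Lipocalin 2 withholds iron from bacteria by binding their siderophores and is made by hepatocytes in inflammation as well as stored in neutrophil granules. *Lcn2* (chr2:32384633-32388252, minus strand) was at 41.17, 296.1 and 309.8 TPM in Alb-Cre- replicates 1, 2 and 3, and at 16.17, 2597 and 17.37 TPM in the Alb-Cre+ replicates. Alb-Cre+ replicate 2 was 8.38 times the next mouse, while the other Alb-Cre+ mice were the lowest of all. The log2 difference was -0.79 (SE 1.96, 95% confidence interval -5.41 to 3.84, limma adjusted p = 0.9999, exact permutation p = 0.8).

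Steap4 is a metalloreductase that reduces iron and copper at membranes. Its gene (chr5:7960457-7982213, plus strand) was at 20.27, 46.23 and 20.4 TPM in the controls and at 16.83, 405.2 and 10.8 TPM in the Alb-Cre+ mice. *Steap4* resembled *Lcn2* in that a single mouse stood far above the rest, 8.76 times the next. Its log2 difference of 0.65 (SE 1.27, limma adjusted p = 0.9999, exact permutation p = 1.0) was the largest positive one of the 10 members.

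The pentraxins Apcs (serum amyloid P) and Crp (C-reactive protein) are ring-shaped plasma proteins that bind microbial and damaged-cell surfaces. *Apcs* (chr1:172893961-172895041, minus strand) was at 135.4, 358.9 and 220.2 TPM in the controls and at 113, 484.1 and 85.95 TPM in the Alb-Cre+ mice. Its order of mice was that of *Orm1* except for the lowest pair, and these 2 genes were the closest pair of members over the 6 mice, with a root mean square difference of 0.251 between their centred log2 values. The log2 difference was -0.40 (SE 0.664, limma adjusted p = 0.9999, exact permutation p = 0.7).

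*Crp* (chr1:172698055-172833031, plus strand) was at 319.6, 267.8 and 314.8 TPM in the controls and at 255.3, 437.1 and 194.9 TPM in the Alb-Cre+ mice. It had the narrowest range of the 10 members, 2.24-fold, and the narrowest interval of the log2 difference, -0.77 to 0.57 around -0.10 (SE 0.284, limma adjusted p = 0.9999, exact permutation p = 0.8). The controls lay between the Alb-Cre+ mice.

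Itih4, the heavy chain 4 of the inter-alpha-trypsin inhibitor family, is a plasma protein that is cleaved by kallikrein. *Itih4* (chr14:30886476-30902353, plus strand) was at 428.8, 715.6 and 797.5 TPM in the controls and at 433.7, 1166 and 368.1 TPM in the Alb-Cre+ mice. The same 3 mice as for *Saa1* were high, over a 3.17-fold range, and the log2 difference was -0.13 (SE 0.456, limma adjusted p = 0.9999, exact permutation p = 0.9).

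The single mice with an acute phase pattern thus differed in which members were high. Set against Alb-Cre+ replicate 2 in TPM as deposited, Alb-Cre- replicate 3 reached 89.1% of its *Saa1*, 87.9% of its *Saa2* and 77.8% of its *Saa4* level. The same control reached only 11.9% of its *Lcn2*, 5.14% of its *Orm2* and 5.04% of its *Steap4* level. Alb-Cre- replicate 2 reached 37.8% for *Saa1* and 28.3% for *Saa2*, but 55.3% for *Orm2* and 74.1% for *Apcs*, which is more than the other control reached for these 2 genes. For *Lcn2* and *Steap4* it reached 11.4% each. After median-of-ratios scaling, Alb-Cre- replicate 3 was above Alb-Cre+ replicate 2 for *Saa1* (6746 against 5939) and *Saa2* (5486 against 4897). For *Saa4* it was then nearly level with it (150.3 against 151.4). No replicate of these 3 mice exists, so the differences among them were not tested.

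**Figure D2:**
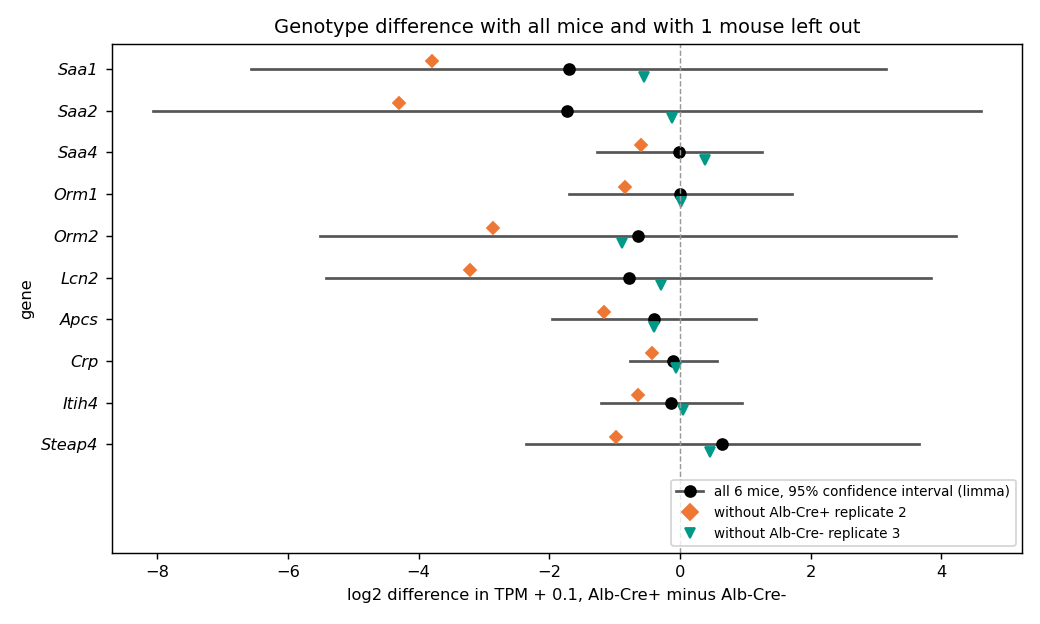
Log2 difference of TPM + 0.1 between genotypes, Alb-Cre+ minus Alb-Cre-, for each acute phase gene, with black points and 95% confidence intervals from limma for all 6 mice, orange diamonds without Alb-Cre+ replicate 2 and green triangles without Alb-Cre- replicate 3. All 10 intervals include 0, and leaving out Alb-Cre+ replicate 2 puts all 10 values below 0. That mouse had the highest TPM of all 10 genes, so leaving it out could only lower each value.

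Of the 10 members, 0 had an unadjusted p under 0.05, where 1.76% of all genes did. The labels name no pairs, and pairs here are mice with the same replicate number. They were taken as pairs because their deviations were correlated in these data, and replicate 2 is also the female of each genotype. The block was thus chosen from the data it was fitted to. Its p-values, here and below, are therefore no independent test of genotype. With the replicate number as a block, again 0 members had an unadjusted p under 0.05, against 666 genes, or 4.69%. Within pairs, Alb-Cre+ minus Alb-Cre-, replicate 2 was positive for all 10 members, from 0.43 for *Apcs* to 3.13 for *Lcn2* on the log2 scale, and replicate 3 was negative for all 10, from -0.69 for *Crp* to -6.94 for *Saa2*. The median over members was -0.26 for replicate 1, 1.21 for replicate 2 and -1.34 for replicate 3, beside medians of -0.02, 0.16 and -0.14 over all genes tested. The direction thus turned with the pair that was read.

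With all mice, 8 members had a log2 difference below 0 and 2 above it, with a median of -0.26 beside -0.00168 over all genes. Alb-Cre+ replicate 2 was the highest mouse for all 10 members as deposited, so leaving it out could only lower their differences. Without it, all 10 lay below 0 with a median of -1.07, beside -0.12 over all genes. *Lcn2*, *Apcs* and *Crp* then had an unadjusted p under 0.05, against 3.61% of all genes, and the smallest adjusted p among the members was 0.953 by limma. With their highest mouse removed, these p-values are no independent test of genotype. The fit in male mice alone was chosen after seeing the data and also leaves out that mouse. There, all 10 lay below 0 with a median of -0.82, beside -0.08 over all genes. *Lcn2*, *Apcs*, *Crp* and *Steap4* had an unadjusted p under 0.05, against 3.77% of all genes (smallest adjusted p 0.999 by limma).

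The genotype difference in males was set against that in the 1 female of each genotype with limma's interaction term. All members had a lower difference in males, by -3.72 for *Steap4* and -1.21 for *Crp*, for example. The unadjusted p was under 0.05 for 5 members (*Saa4*, *Orm1*, *Lcn2*, *Crp* and *Steap4*) and for 6.08% of all genes, and the smallest adjusted p of a member was 0.509. The female term rests on a single pair of mice, which includes Alb-Cre+ replicate 2, so sex and that mouse cannot be told apart.

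Other positive acute phase genes followed the members in Alb-Cre+ replicate 2. Of a list of 22 such genes, 20 were highest in that mouse as deposited and 15 after median-of-ratios scaling, beside 45.8% and 22.7% of all genes. *Serpina3n* and *Hamp* were highest in other mice in both. The list had 0 genes at an unadjusted p under 0.05, beside 1.76% of all genes. Its median log2 difference was 0.02, beside -0.00168 over all genes. Its widest ranges were those of *Il1rn*, the interleukin-1 receptor antagonist, 32.1-fold, *Saa3*, 29.9-fold, and *Orm3*, 21.0-fold.

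*Saa3*, the amyloid A gene best known from macrophages and tissues outside the liver, was at 35.84, 274 and 154.9 TPM in the controls and at 63.59, 1073 and 45.67 TPM in the Alb-Cre+ mice. *Il1rn* was at 4.604, 11.78 and 4.582 TPM in the controls and at 4.869, 74.62 and 2.327 TPM in the Alb-Cre+ mice. Both had their highest value in Alb-Cre+ replicate 2, and Alb-Cre- replicate 3 was among the high mice for *Saa3* and among the low ones for *Il1rn*. *Orm3* was at 8.718, 38.34 and 5.141 TPM in the controls and at 11.93, 108.2 and 8.33 TPM in the Alb-Cre+ mice, higher than the control in every pair. With the replicate block its log2 difference was 0.88 (SE 0.22, unadjusted p = 0.00897 and adjusted p = 0.738 by limma). Without the block the SE was 1.09 and the limma unadjusted p 0.447, and the genotypes overlapped. Leaving out Alb-Cre+ replicate 2 brought the difference to -0.27. With the block, *Orm3* was the 1 gene of the 22 with an unadjusted p under 0.05, beside 4.69% of all genes.

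Abundant plasma carriers of haem and haemoglobin spanned smaller ranges than *Saa1*. Haptoglobin (*Hp*), which binds free haemoglobin, was at 4612, 8708 and 8193 TPM in the controls and at 4227, 19820 and 3790 TPM in the Alb-Cre+ mice. Hemopexin (*Hpx*), which binds haem, was at 3933, 9396 and 7838 TPM in the controls and at 3159, 17200 and 3117 TPM in the Alb-Cre+ mice. The same 3 mice as for *Saa1* were high, and both had log2 differences close to 0 relative to their errors (-0.02, SE 0.646, and -0.26, SE 0.701).

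**Figure D3:**
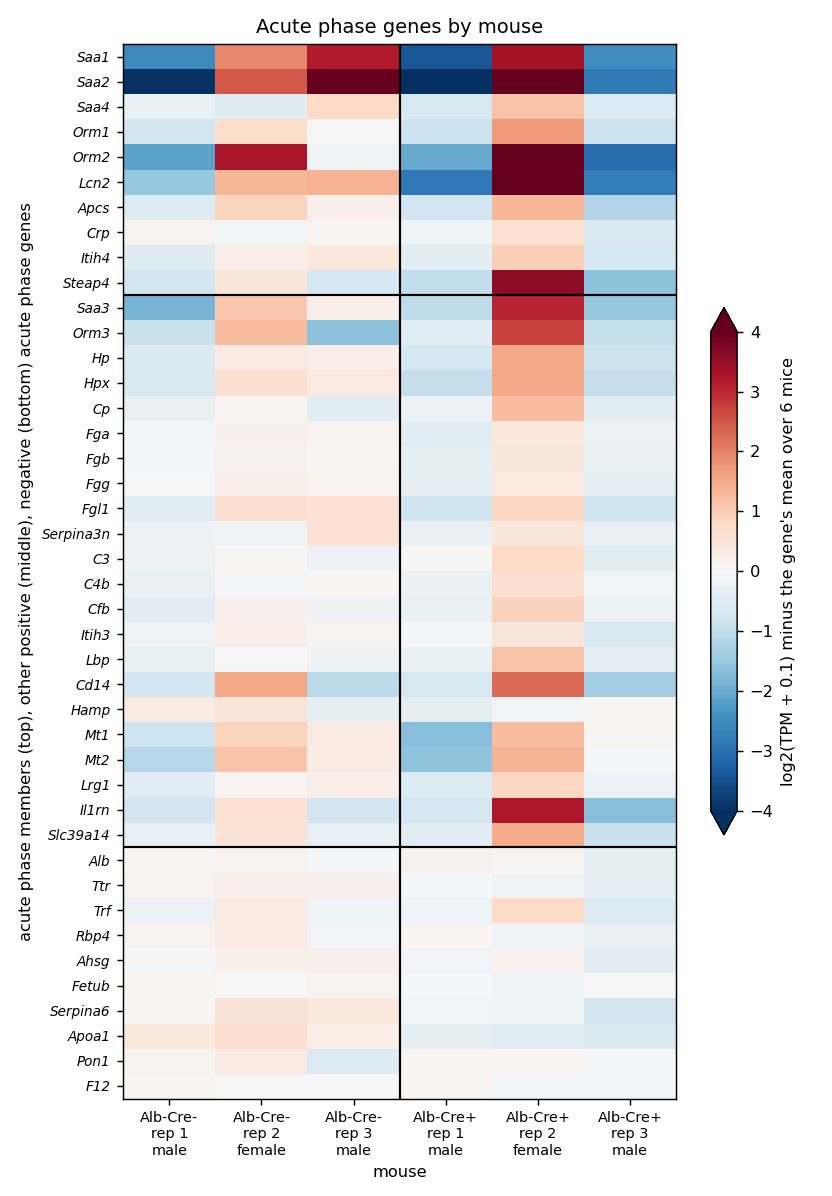
Log2(TPM + 0.1) of each gene minus its mean over the 6 mice, in colour from -4 or below (blue) to 4 or above (red), with mice as columns and the 10 members, 22 other positive and 10 negative acute phase genes as rows from top to bottom. As deposited, Alb-Cre+ replicate 2 is above the gene's mean for nearly all genes of the upper blocks, but pale for those of narrow range such as *Crp*, *Fga* and *Fgb*. It was highest for 10 members and 20 others (8 and 15 after median-of-ratios scaling), beside 45.8% of all genes (22.7% after scaling). Alb-Cre- replicate 3 is deep red for *Saa1* and *Saa2*, and the negative block is pale in every mouse.

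Negative acute phase genes varied less between mice. In the list of 10, only *Trf* was highest in Alb-Cre+ replicate 2, also after scaling, beside 45.8% and 22.7% of all genes. The median log2 difference was -0.20. Between genotypes, *Apoa1*, the main protein of high density lipoprotein, was at 17600, 20840 and 15760 TPM in the controls and at 10220, 9779 and 8802 TPM in the Alb-Cre+ mice. The genotypes did not overlap (log2 difference -0.91, SE 0.238, limma unadjusted p = 0.00651, adjusted p = 0.9999). *Serpina6*, which encodes corticosteroid-binding globulin, had a log2 difference of -0.65 (SE 0.215, limma unadjusted p = 0.0197). That of *Ttr*, transthyretin, was -0.37 (limma unadjusted p = 0.0771 without the replicate block and 0.0342 with it). *Ttr*, *Fetub*, *Serpina6* and *Apoa1* were the 4 genes of this list whose genotypes did not overlap, where 4.9% of all genes did not.

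Among cytokines and their receptors, transcripts of the inducers were scarce. *Il6* lay between 0 and 0.216 TPM, *Il22* was listed at 0 in every mouse, and *Tnf*, *Osm* and *Lif* had means under 0.1 TPM and were not tested. Of the 11 genes of this list that were tested, 0 had an unadjusted p under 0.05, beside 1.76% of all genes. With the replicate block 3 did, beside 4.69% of all genes. They were *Il1b* (log2 difference 1.11), its receptor *Il1r1* (0.52) and the receptor subunit *Il1rap* (-0.24), each with an adjusted p of at least 0.738 by limma. Leaving out Alb-Cre- replicate 3 brought *Il1b* to 0.53, and leaving out Alb-Cre- replicate 1 brought *Il1rap* to -0.16 and *Il1r1* to -0.04. *Il1b* was at 4.278, 2.012 and 0.8248 TPM in the controls and at 5.824, 6.892 and 1.961 TPM in the Alb-Cre+ mice. Its levels did not follow those of *Saa1*, as Alb-Cre- replicate 3 was the lowest mouse. The range was 8.36-fold for *Il1b*, 4.55-fold for *Il1r1* and 3.25-fold for *Il22ra1*, the receptor chain for interleukin-22.

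The intracellular signalling list held 19 genes. Of these, 14 were highest in Alb-Cre+ replicate 2 as deposited and 9 after scaling, beside 45.8% and 22.7% of all genes. In either fit 0 had an unadjusted p under 0.05, beside 1.76% of all genes without the block and 4.69% with it. *Socs3*, the feedback inhibitor that STAT3 induces, was at 3.642, 4.685 and 3.12 TPM in the controls and at 4.485, 13.68 and 2.385 TPM in the Alb-Cre+ mice. *Nfkbiz*, an inducible NF-kB cofactor, was at 2.373, 11.83 and 1.47 TPM in the controls and at 1.669, 14.45 and 0.9823 TPM in the Alb-Cre+ mice. *Socs3* was thus high in 1 mouse and *Nfkbiz* in both females, while neither was high in Alb-Cre- replicate 3, where *Saa1* and *Saa2* were. *Tnfaip3*, which encodes the NF-kB inhibitor A20, followed *Nfkbiz* over a 6.99-fold range.

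Of 13 transcription factors of the response, 6 were highest in Alb-Cre+ replicate 2 as deposited and 4 after scaling, beside 45.8% and 22.7% of all genes. The widest ranges were those of *Fos*, 26.9-fold, *Jun*, 24.4-fold, and *Junb*, 4.78-fold, none of which was highest in that mouse. *Stat3*, which induces its own gene, was at 28.59, 33.07 and 22.24 TPM in the controls and at 24.28, 51.09 and 16.08 TPM in the Alb-Cre+ mice. *Creb3l3*, the endoplasmic reticulum-bound factor known to drive *Apcs* and *Crp*, had a log2 difference of 0.26 with an unadjusted p of 0.038 under the replicate block (limma adjusted p = 0.9988), and was the only gene of this list with an unadjusted p under 0.05 in either fit. The list of 8 glucocorticoid-responsive genes, glucocorticoids being cofactors of the response, had a median log2 difference of -0.35, beside -0.00168 over all genes. Without Alb-Cre+ replicate 2 the median of the list was -0.12, as was that over all genes. Alb-Cre+ replicate 2 was highest for 2 of them as deposited and 0 after scaling, beside 45.8% and 22.7% of all genes. With the block 1 gene, *Dusp1*, had an unadjusted p under 0.05, beside 4.69% of all genes. Its log2 difference was -0.59 (limma unadjusted p = 0.0153 with the block), and -0.29 without Alb-Cre+ replicate 3. *Tat*, tyrosine aminotransferase, was lowest in Alb-Cre+ replicate 2, with 764.6 TPM against 1382 to 2121 TPM in the other mice. The widest ranges of this list were those of *Per1*, 3.06-fold, *Dusp1*, 3.02-fold, and *Sgk1*, 2.81-fold.

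Promoter sequence is shown for the 2 inducible amyloid genes, for *Orm2* and *Steap4*, which also had ranges of at least 10-fold, and for *Crp*, which had the narrowest range. A RefSeq promoter (GRCm38.p6) was found for 9 members, and *Orm1* had no entry in that table. The 250 bases before the RefSeq gene start were searched on both strands for 4 motifs. The letters were TTCNNNGAA for a STAT site, CTGGGAA for a type II acute phase element, TTNNGNAA for a C/EBP site and GGGNNTTCC for an NF-kB site. The RefSeq start can differ from the GENCODE start given above, so that the searched window overlaps annotated exons by 139 bases in *Lcn2*, 43 in *Saa2*, 15 in *Steap4* and 1 in *Crp*. Shown are bases 250 to 51 before the RefSeq start, which hold no annotated exon, 5′ to 3′ on the strand of the gene, with motif matches in capitals. They lie at chr7:46743031-46743230 (minus strand) for *Saa1*, chr7:46751583-46751782 (plus) for *Saa2*, chr4:63362199-63362398 (plus) for *Orm2*, chr5:7960222-7960421 (plus) for *Steap4* and chr1:172697806-172698005 (plus) for *Crp*.
Saa1 promoter: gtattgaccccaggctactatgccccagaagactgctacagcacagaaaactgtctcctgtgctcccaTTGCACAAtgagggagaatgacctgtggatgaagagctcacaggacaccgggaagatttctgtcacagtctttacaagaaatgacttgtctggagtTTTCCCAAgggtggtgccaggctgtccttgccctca
Saa2 promoter: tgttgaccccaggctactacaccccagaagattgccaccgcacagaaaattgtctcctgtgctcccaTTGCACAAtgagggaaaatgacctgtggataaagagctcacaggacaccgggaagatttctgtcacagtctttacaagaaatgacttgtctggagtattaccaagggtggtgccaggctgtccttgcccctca
Orm2 promoter: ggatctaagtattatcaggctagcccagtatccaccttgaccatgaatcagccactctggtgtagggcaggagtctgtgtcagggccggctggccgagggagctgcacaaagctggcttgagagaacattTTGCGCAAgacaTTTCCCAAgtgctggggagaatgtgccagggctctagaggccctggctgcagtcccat
Steap4 promoter: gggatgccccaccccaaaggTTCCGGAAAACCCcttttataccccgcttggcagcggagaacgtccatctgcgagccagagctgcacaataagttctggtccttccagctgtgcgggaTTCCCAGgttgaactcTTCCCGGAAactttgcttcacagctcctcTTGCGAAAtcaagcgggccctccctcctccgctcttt
Crp promoter: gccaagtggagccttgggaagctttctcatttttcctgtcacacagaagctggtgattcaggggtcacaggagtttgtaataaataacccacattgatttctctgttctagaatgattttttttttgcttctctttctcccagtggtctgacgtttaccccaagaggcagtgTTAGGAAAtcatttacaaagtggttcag

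In these windows *Saa1* and *Orm2* held 2 C/EBP matches each, *Saa2* and *Crp* held 1 each, and *Steap4* held all 4 motifs, its first C/EBP match overlapping the NF-kB match. Over the full 250 bases, 7 of the 9 member promoters held a C/EBP match, against 36.8% of 32851 promoters, 3 held a STAT match (*Apcs*, *Itih4* and *Steap4*), against 7.02%, 2 held the type II element (*Apcs* and *Steap4*), against 9.1%, and 1 held the NF-kB match (*Steap4*), against 4.98%. The *Saa1* and *Saa2* promoters shared 238 of 250 bases in the same order, while *Saa1* and *Crp* shared 152. All 5 members with a range of at least 10-fold held a C/EBP match, as did *Crp* and *Saa4*, while *Apcs* and *Itih4* held none. The *Lcn2* match lies at -216 to -209 from the RefSeq start. It falls within bases 250 to 51, of which 139 are annotated exon in *Lcn2*, so it may be exon sequence. The matches are letters in a window, not sites shown to be bound.

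Apart from the members, the genes most like *Saa1* over the 6 mice were the gene models *Gm13736*, *Gm12338* and *Gm9762*, the matrix protease gene *Adamts9* and *Saa3*, with root mean square differences of 0.874, 1.45, 1.67, 1.54 and 1.66 between centred log2 values, among 10625 genes compared. Of these gene models, *Gm13736* and *Gm12338* were listed at 0 in replicate 1 of both genotypes and in Alb-Cre+ replicate 3. *Gm9762* was listed at 0 in Alb-Cre+ replicates 1 and 3. Their low log2 values there are set by the added 0.1 TPM. The genes most like *Lcn2* were *Adamts9* (1.06), *Saa3* (1.18), the chitinase-like gene *Chil1* (1.21), the receptor subunit gene *Ramp3* (1.28) and *Gm11843* (1.3). *Chil1* was at 20.16 TPM in Alb-Cre+ replicate 2, 7.35 TPM in Alb-Cre- replicate 2 and at most 0.6385 TPM in the other 4 mice. *Adamts9* was at 4.934 TPM in Alb-Cre+ replicate 2, 1.978 TPM in Alb-Cre- replicate 2 and 0.7045 TPM in Alb-Cre- replicate 3, and lower in the other 3 mice.

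Markers of inflammatory cells moved with some of the members. The 11 neutrophil markers summed to 37.2, 150.5 and 24.27 TPM in the controls and to 43.3, 310.9 and 55.23 TPM in the Alb-Cre+ mice. All 11 were highest in Alb-Cre+ replicate 2 as deposited, as were the 10 that were tested after scaling, beside 45.8% and 22.7% of all genes. *S100a8* and *S100a9* made up most of the sum. The sum was higher in the Alb-Cre+ mouse of every same-numbered pair, but the single markers did not all go that way. Log2 differences were above 0 for 7 of the tested markers and below 0 for 3 (*Elane*, *Camp* and *Ltf*). Between the replicate 1 mice, *Mpo*, *Elane*, *Ngp*, *Camp* and *Ltf* were lower in Alb-Cre+. Of the 10 tested, 0 had an unadjusted p under 0.05 without the replicate block and 4 did with it (*S100a8*, *S100a9*, *Retnlg* and *Cxcr2*), beside 4.69% of all genes, the smallest being that of *Retnlg* (unadjusted p = 0.00026, adjusted p = 0.281 by limma). None of the 11 was at 0 in every mouse, but 5 (*Ly6g*, *Mpo*, *Elane*, *Camp* and *Ltf*) stayed below 1 TPM in all mice. *Mpo* and *Ltf* were listed at 0 in Alb-Cre+ replicate 1, and *Camp* was listed at 0 in Alb-Cre- replicate 3 and Alb-Cre+ replicate 3. Alb-Cre- replicate 3, with the highest *Saa1*, *Saa2* and *Lcn2* of the controls, had the lowest neutrophil sum of the 6 mice.

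The 11 Kupffer cell and macrophage markers summed to 318.7 to 869 TPM in the controls and to 255.4 to 922 TPM in the Alb-Cre+ mice, and the 5 monocyte markers to 8.746 to 49.96 and 7.248 to 48.23 TPM. Both sums were high in the females of both genotypes. With the replicate block, limma gave 1 gene of these lists, the scavenger receptor gene *Marco*, a p under 0.05 before adjustment (adjusted p = 0.925), beside 4.69% of all genes. *Orm2*, *Nfkbiz* and *Tnfaip3* were high in the same mice, and the part of these cells in their levels was not tested. The hepatocyte sum ranged over 1.41-fold.

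**Figure D4:**
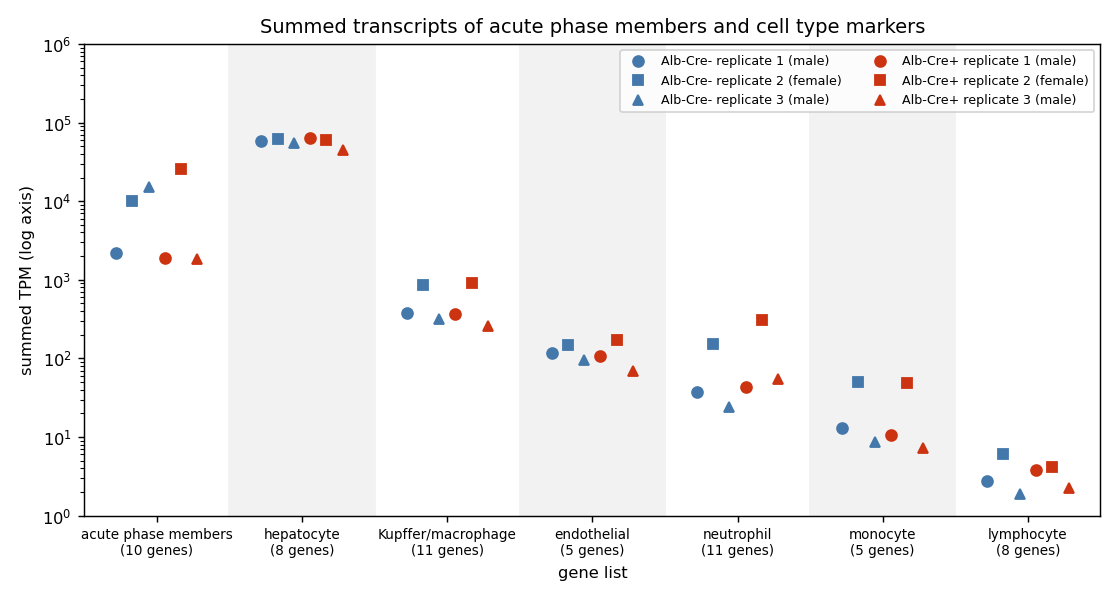
Summed TPM on a log axis of the 10 acute phase members and of marker lists for hepatocytes and 5 other cell types, 1 point per mouse, blue for Alb-Cre- and red for Alb-Cre+. The neutrophil sum is highest in Alb-Cre+ replicate 2 at 310.9 TPM, the Kupffer and monocyte sums are high in both females, and Alb-Cre- replicate 3 has a high sum of members beside the lowest neutrophil sum.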

How the data were processed

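RNA sequencing of liver from 6 mice, 3 *Surf4* fl/fl Alb-Cre+ and 3 Alb-Cre- littermates, was analysed, grouped by the labels. The authors deposited TPM per transcript and mouse, adding up to 1000000 in each mouse, in a table named for salmon, while the methods name STAR, RSEM, GRCm38 and DESeq2. The authors' own comparison, also deposited (log2 fold changes, p-values and a mean count score), was not used.

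TPM were summed per gene symbol. The genes that averaged 0.1 TPM or more were tested in R 4.3.3 by limma 3.58.1 on log2(TPM + 0.1), with a trend in the prior variance, genotype as the only factor, Benjamini-Hochberg adjustment over all genes and a threshold of 0.01. Fold changes on this scale understate those of low genes. Tools for counts were not run on TPM. Single genes were also compared by a two-sided exact permutation test. Same-numbered mice had correlated deviations (Pearson's r over 14189 genes 0.367, 0.588 and 0.37, against -0.444 to 0.171 for mice with unlike numbers). The replicate number was therefore used as a block in an alternative fit, although the labels name no pairs. On simulated data with 200 changed genes, 48 were called and 0 unchanged ones. Of the unchanged ones there, 5.33% had a limma unadjusted p under 0.05, where 1.76% of all genes tested in the mice did. How far such data match these mice was not tested. The share of changed genes that the fit finds in the mice is therefore unknown.

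Named were the 10 members, *Surf4*, *Saa3*, *Orm3*, pathway list genes with an unadjusted p under 0.05 in either fit, up to 3 genes a list with the widest range (averaging 1 TPM or more), and the 5 genes most like *Saa1* and *Lcn2*. Others were chosen after their values were seen. The members and lists were chosen with earlier results of these data known.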

Additional observations from a re-analysis of the deposited data

How the results depend on the processing

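With 1 mouse left out in turn, the log2 difference ranged from -0.59 to 0.38 for *Saa4*, -0.85 to 0.44 for *Orm1*, -2.86 to 0.83 for *Orm2*, -3.21 to 0.45 for *Lcn2*, -1.16 to 0.0856 for *Apcs*, -0.43 to 0.16 for *Crp*, -0.65 to 0.19 for *Itih4*, -0.98 to 1.63 for *Steap4*, -1.05 to 0.48 for the *Orm1* and *Orm2* sum, -0.27 to 1.71 for *Orm3* and -0.0402 to 1.01 for *Il1r1*. It kept its sign for *Saa1* (-3.80 to -0.43), *Saa2* (-4.30 to -0.12), *Il1b* (0.53 to 1.66), *Il1rap* (-0.33 to -0.16) and *Dusp1* (-0.998 to -0.287). For all 10 members the lowest value was that without Alb-Cre+ replicate 2, the mouse with their highest TPM. The number of members at an unadjusted p under 0.05 ranged from 0 to 3 and that of all genes from 183 to 506, while 0 to 1 genes passed the threshold (*Gm10240*, without Alb-Cre+ replicate 1).

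In male mice alone, an alternative chosen after seeing the data, *Orm1* (-0.50) and *Steap4* (-0.59) turned negative and 4 members and 522 genes had an unadjusted p under 0.05. Of all genes tested, 666 did with the replicate block, 531 with sex as a covariate and 442 without a filter on low values. No gene passed the threshold with the block, and the list genes it brought under an unadjusted p of 0.05 are named in the text. The cause of these changes was not tested. TPM as deposited are shares of 1 total, and the depth that limits low genes such as *Il6* is unknown.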

Other observations

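Transcripts annotated as retained introns formed a small part of several members. That of *Itih4* was at 0.367 to 0.487 TPM in 5 mice and at 12.2 TPM in Alb-Cre+ replicate 2, where it made up 1.05% of the gene's TPM against 0.0586% to 0.129% elsewhere. That of *Saa1* was at 18.1 TPM (0.253% of the gene) in Alb-Cre+ replicate 2 and at 2.91 TPM (0.0458%) in Alb-Cre- replicate 3, although total *Saa1* was similar in these mice. Those of *Lcn2*, 3 transcripts, summed to 37.3 TPM in Alb-Cre+ replicate 2 and 6.51 TPM in Alb-Cre- replicate 2, and to at most 0.779 TPM in the other mice. As a share of the gene they were at 1.44% in Alb-Cre+ replicate 2, below the 2.2% of Alb-Cre- replicate 2 and the 1.76% of Alb-Cre+ replicate 1. These are single mice, and no test was made.

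The immediate early genes *Fos*, *Jun* and *Junb*, which encode AP-1 factors, were high in replicate 1 of both genotypes, which had low *Saa1*, *Saa2* and *Lcn2*. *Fos* was at 47.18 TPM in Alb-Cre- replicate 1 and 35.28 TPM in Alb-Cre+ replicate 1, against 1.756 to 5.723 TPM in the other 4 mice. *Jun* was at 141.2 and 145.2 TPM in these mice, against 5.942 to 17.36 TPM in the others, and *Junb* ranged over 4.78-fold.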
